A study of Schizosaccharomyces pombe with 2 samples.

Results

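The centromeres of fission yeast, Schizosaccharomyces pombe, were followed as 288 array tiles, out of 41251 chromosome tiles on each array. These 288 lie in the gene-poor interval at the centromere of each chromosome. The tiles were taken by position alone. They run from the tile named for position 3754200 to 3785700 on chromosome I (98 tiles), from 1603200 to 1646400 on chromosome II (80 tiles) and from 1071000 to 1136700 on chromosome III (110 tiles). Positions are those of the tile names, with a genome build not given in the sources used here. The study measured DNA synthesis under replication stress in 2 strains of the 972h background, with 1 array per strain. The strain called wild-type carries cdc10-v50, and the sap1-1 strain carries cdc10-v50 and sap1-1. Both also carry Pnmt1-TK, a thymidine kinase module, and Padh1-hENT, a nucleoside transporter module, which let the cells take up and phosphorylate the thymidine analogue BrdU. Cultures were held at 35 °C for 4 h to arrest them and were returned to 26 °C with 10 mM hydroxyurea, a drug that depletes deoxynucleotides, and 200 µM BrdU, and sodium azide (0.1%) ended the labelling. The input, DNA of the whole-cell extract, was labelled with Cy3 and the DNA precipitated with an antibody to BrdU with Cy5. The BrdU level of a tile is the log2 ratio of Cy5 to Cy3 processed signal minus the median of all chromosome tiles of that array, so that 0 is the typical tile of the array and 1 is a 2-fold higher ratio. With 1 array per strain there is no replicate and no test; every SD is over tiles of 1 array, and culture, precipitation and hybridisation cannot be told apart from strain.

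As background, each fission yeast centromere has a central core on which the CENP-A nucleosomes of the kinetochore assemble, flanked by inverted innermost repeats and then by outer repeats of the dg and dh families. The outer repeats carry heterochromatin with methylated histone H3 lysine 9 and the HP1 protein Swi6, kept up through RNA interference, and clusters of tRNA genes lie between the heterochromatin and the central core, where they act as barriers. Pericentromeric heterochromatin is known to replicate early in S phase in this yeast. Sap1 is an essential DNA-binding protein best known from the mating-type switch, the replication fork barrier of the rDNA and LTR retrotransposons, and Cdc10 is a subunit of the factor that drives transcription at the G1/S transition.

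None of the 3 intervals holds a protein-coding gene in the NCBI reference (ASM294v3), as their description as gene-free would have it, but they do hold other genes: the reference places 6 tRNA genes in the interval of chromosome I, 11 in that of II and 12 in that of III, with 25, 39 and 48 other non-coding RNA genes. The protein-coding genes on either side are per1 and emc5 on chromosome I, rpb1 (the largest subunit of RNA polymerase II) and yox1 on II, and chk1 (the DNA damage checkpoint kinase) and ppc1 on III. The tRNA genes more than 5 kb inside the ends of an interval were used to mark a central domain, from the outermost of them on one side to the outermost on the other, which spans 12.3 kb in I, 11.8 kb in II and 14.1 kb in III. Here 41, 36 and 35 tiles fell in the central domain and 57, 44 and 75 in the outer domain, which holds the outer repeats. Tile numbering and reference differ, so this placement rests on matching GC content and repeat copies to the input signal. It was taken as good to about 1 kb, an accuracy that was not checked inside the intervals. On I the offset to the reference changes from -900 bp on the left arm to 4350 bp on the right arm.

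The tRNA genes that bound the central domains are shown because they recur: the 23 tRNA genes of the central domains have only 8 different sequences. Left and right copies within a centromere are identical, apart from a tRNA-Glu gene of III that has no partner there. Each of the 3 sequences below has 4 identical copies spread over a pair of centromeres, and further copies lie elsewhere, 9 in all on the 3 chromosomes for tRNA-Ala, 6 for tRNA-Ile and 8 for tRNA-Val. A tile at one copy can also capture DNA from the others. Sequences are from RefSeq (ASM294v3), 5′ to 3′ on the strand of the gene; capitals mark the letters TTCGA, part of the B box of the internal promoter, searched on the gene's own strand and found in 21 of these 23 genes and in 82.5% of the 171 tRNA genes of the 3 chromosomes.
tRNA-Ala, the outermost pair of chromosome I (first copy on the minus strand), identical to the pair on II: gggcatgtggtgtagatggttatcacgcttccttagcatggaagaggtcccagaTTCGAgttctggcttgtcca
tRNA-Ile, the innermost pair of chromosome I (first copy on the plus strand), identical to the outermost pair on II: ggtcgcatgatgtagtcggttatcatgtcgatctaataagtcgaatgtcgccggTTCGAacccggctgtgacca
tRNA-Val, the innermost pair of chromosome II (first copy on the minus strand), identical to a pair on III: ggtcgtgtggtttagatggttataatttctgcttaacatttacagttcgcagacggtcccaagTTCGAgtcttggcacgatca

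The repeats also shape what a tile can report. Tile names carry no suffix, an f or an m after the position. Outside the intervals the 300 bp at a tile with no suffix had a median of 1 copy in the reference, against 2 copies for f and 4.58 for m, counted as 30-base words. In the intervals 128 tiles are f, 122 are m and 38 have no suffix, and 28 of these 38 lie on chromosome II. The m tiles lie almost wholly in the outer domains, 119 of 122. Median copy number there was 5.32 in I, 5.32 in II and 9.43 in III, so most outer tiles report an average over several copies. Of the 176 outer tiles 29 had under 3 copies, 2 of them a single copy. Coverage was uneven: of the positions that a 300 bp spacing allows, 98 of 106 carried a tile on I, 80 of 145 on II and 110 of 224 on III. On III 81 tiles lie left of the midpoint and 29 right of it, and the widest gaps are 5400 bp on II and 4800 bp on III, both to the right of the midpoint.

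All 3 centromeres stood far above the typical tile in both strains. In wild-type the median BrdU level was 2.95 (SD 0.66 over 98 tiles) at centromere I, 2.96 (SD 0.64, 80 tiles) at II and 3.12 (SD 0.68, 110 tiles) at III. In sap1-1 the medians were 2.49 (SD 0.87), 2.58 (SD 0.73) and 2.61 (SD 0.72). The medians of the 3 centromeres thus lay within a fraction of the tile SD of each other on either array, and the order I, II, III was the same in both. In wild-type 287 of the 288 tiles reached a 2-fold excess over the typical tile, where 24.6% of all tiles did; in sap1-1 276 did, against 23.1% of all tiles. At 4-fold or more (2 log2) the counts were 267 in wild-type, against 7.84% of all tiles, and 222 in sap1-1, against 6.41%. At 8-fold or more (3 log2) the strains parted: 148 centromere tiles in wild-type, against 1.15% of all tiles, and 62 in sap1-1, against 0.968%. The centromeres supplied 31.2% of all wild-type tiles at that height and 15.5% of those in sap1-1. From 4 log2 upwards they held 16 of 24 tiles in wild-type and 4 of 22 in sap1-1.

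**Figure D1:**
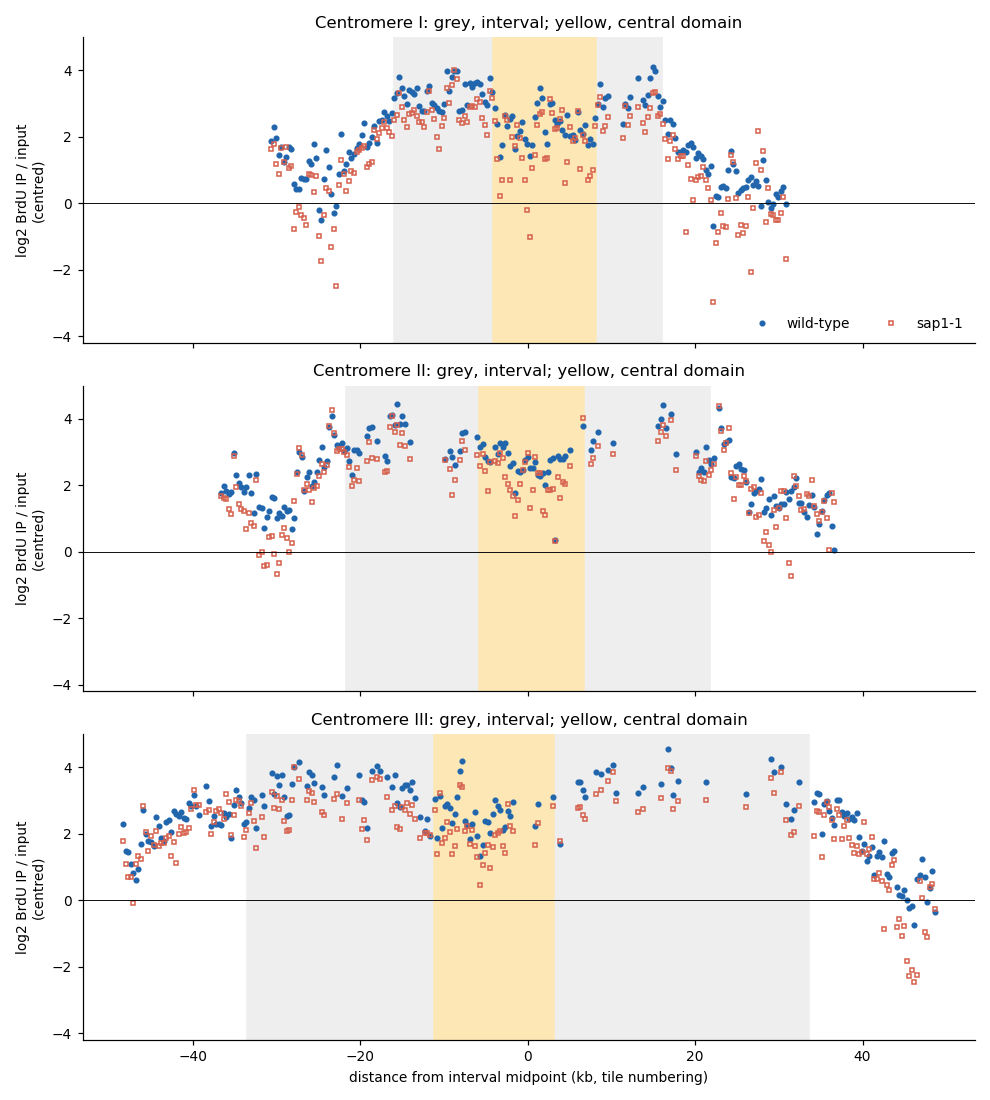
BrdU level (centred log2 ratio of precipitated to input DNA) of each tile against distance from the midpoint of the interval in kb, for centromeres I, II and III and 15 kb beyond, with wild-type as filled circles and sap1-1 as open squares. In each panel, with no loess applied, the yellow central domain has a lower median than the grey outer domain, for example 2.21 against 3.25 in wild-type at I.

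The nearest comparisons were the 50 kb of chromosome on either side of the intervals (996 tiles), the outer 100 kb of chromosomes I and II (1234 tiles) and the mating-type region (64 tiles), another heterochromatic locus. Over all centromere tiles the median was 3.01 on the wild-type and 2.54 on the sap1-1 array. The flanks were close to the array median, at 0.41 and 0.20, the ends reached 1.77 and 0.81, and the mating-type region reached 2.52 and 1.99. The median difference of sap1-1 minus wild-type was -0.54 at the centromeres, -0.55 at the mating-type region and -0.94 at the chromosome ends. In the flanks it was -0.31 (SD 0.95 over tiles), with -0.51 beside centromere I, -0.047 beside II and -0.38 beside III. At a matched height the centromeres differed from the arms. Tiles of the rest of the chromosomes whose mean level over both arrays lay between the quartiles of the centromere tiles, 2.31 to 3.19, numbered 953 and had a median difference of 0.036 (SD 0.49), where the 144 centromere tiles in that range had -0.52 (SD 0.30). The rest of the chromosomes as a whole had a median difference of -0.086, with an SD of the level of 1.21 in wild-type and 1.38 in sap1-1. With the wider spread in sap1-1, choosing by a high mean of both arrays favours tiles high in sap1-1. The part of this choice in the contrast was not tested. These comparisons describe 2 arrays and were not tested.

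From centre to edge the BrdU level was lowest in the middle of every centromere, an order that turned where loess was applied within arrays. With each interval cut into 4 zones of equal width by distance from its midpoint, the wild-type medians from the innermost to the outermost zone were 2.39, 2.77, 3.002 and 3.30 at centromere I. At centromere II they were 2.75, 3.20, 3.93 and 3.03, and at III 2.59, 3.11, 3.58 and 3.43. Centromere I was thus highest at its edge, and II and III were highest in the zone before the edge. In sap1-1 the same zones gave 1.96, 2.38, 2.59 and 2.67 at I, 2.06, 2.79, 3.58 and 2.53 at II and 2.07, 2.60, 3.004 and 2.83 at III, so each centromere had the same lowest and the same highest zone in both strains. Centromeres I and III are not symmetric about their midpoints in the tile numbering. The interval of I spans 32 kb in that numbering but 37.55 kb in the reference. The offset between them changes at tile 3781200, right of the central domain. The midpoint, zones and sides of I thus hold for the tile numbering only. The central domain of I spans tiles 3765900 to 3777900 and lies to the right, with 14 tiles left and 27 right of the midpoint. The zone of I next to the innermost thus holds outer tiles on the left and central tiles on the right, and its median mixes both. The central domain of III spans tiles 1093200 to 1107300 and lies to the left.

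Between the central and outer domains there was a step in median level, whose sign also turned with loess. In wild-type the central domain had a median of 2.21 and the outer domain 3.25 at centromere I, 2.75 and 3.28 at II, and 2.59 and 3.41 at III. In sap1-1 the pairs were 1.88 and 2.67 at I, 2.17 and 2.80 at II, and 1.95 and 2.81 at III. The outer minus central difference was therefore 1.04, 0.53 and 0.82 in wild-type, against 0.79, 0.63 and 0.85 in sap1-1, with the centromeres in the order I, II, III. Centromere II had the smallest step on both arrays: its central domain was the highest of the 3, and its outer domain lay between those of I and III. The left and right sides of the outer domains gave 3.36 and 3.19 at I, 3.32 and 3.21 at II, and 3.37 and 3.55 at III in wild-type, but the sides share repeats and are not separate measurements.

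Measured from the border of the central domain, the wild-type median pooled over the 3 centromeres was 2.42 more than 4 kb inside (48 tiles). It was 2.71 in the last 2 kb inside (31 tiles) and 3.19 in the first 2 kb outside (22 tiles). At 4 to 6 kb outside it was 3.71 (15 tiles). In sap1-1 the same steps had 1.87, 2.33, 2.62 and 3.03. The pooled level thus went up from bin to bin over these distances. The share of m tiles went from 0% in the innermost bin to 86.7% at 4 to 6 kb outside. Its part in the rise, and that of the mix of centromeres in each bin, was not tested. The centromeres differed there. From the last 2 kb inside to the first 2 kb outside, the wild-type median went from 2.26 (14 tiles) to 3.25 (12 tiles) at I and from 3.102 (8 tiles) to 3.46 (5 tiles) at II, but from 2.88 (9 tiles) down to 2.08 (5 tiles) at III. At II it then went down, to 3.03 at 2 to 4 kb outside (6 tiles) and 2.80 at 4 to 6 kb (1 tile). At 8 to 10 kb outside II had 3.85 (9 tiles). At III the higher level was reached at 2 to 4 kb outside, with 3.42 (10 tiles). In sap1-1 the median of III likewise went from 2.33 to 1.96 and then to 2.74. Here too placement was taken as good to about 1 kb and was not checked. Beyond 6 kb the wild-type median stayed between 3.16 and 3.49.

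**Figure D2:**
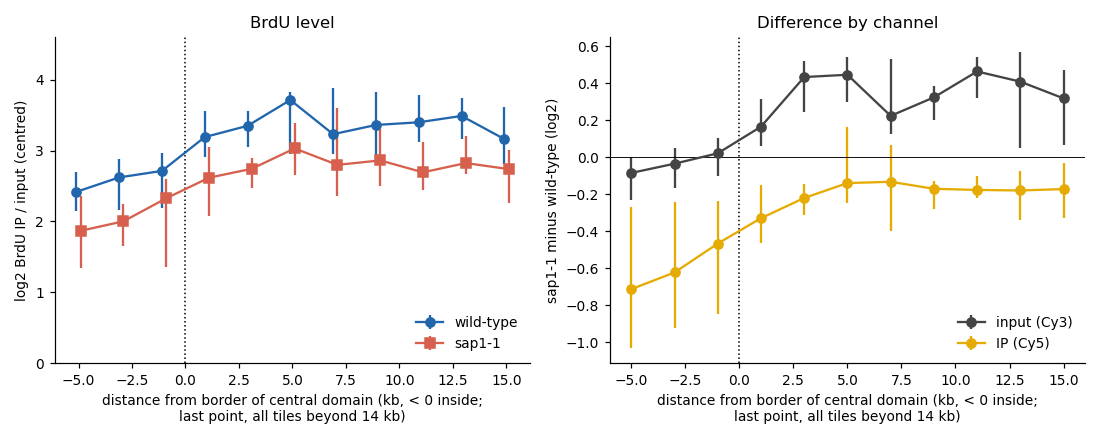
Median BrdU level (left) and median sap1-1 minus wild-type difference of input and precipitated DNA (right), in log2, against distance in kb from the border of the central domain, pooled over the 3 centromeres; bars are quartiles over tiles. With no loess applied, the wild-type level goes from 2.42 in the innermost bin to 3.71 at 4 to 6 kb outside, and the input difference from -0.084 to 0.45; at III alone the level is lower just outside the border (2.08) than just inside it (2.88).

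Copy number and input signal moved with this step, and their part in it was not tested beyond the following values. Among f tiles alone, which are 2-copy sequence in the central domains and 4 copies (I), 3 copies (II) or 2.44 copies (III) in the outer ones, the wild-type medians were 2.31 central and 3.03 outer at I. At II the f tiles had 3.14 central and 3.04 outer, and at III 2.64 and 2.80. Within f tiles the step was thus larger than the tile SD at I, and smaller than it at II, where the central f tiles were the higher ones, and at III. With no loess applied, the m tiles were the highest class: in the outer domains they had 3.36 at I, 3.81 at II and 3.49 at III in wild-type, and 2.71, 3.31 and 2.91 in sap1-1. Tiles with no suffix in the central domains were the lowest, with 1.998 (4 tiles), 2.53 (23 tiles) and 2.14 (6 tiles) in wild-type. Within each class centromere II was the highest in wild-type, at 2.56 with no suffix, 3.06 for f and 3.81 for m, against 1.998, 2.71 and 3.33 at I and 2.14, 2.69 and 3.48 at III. Its share of m tiles was the lowest, 25%, against 38.8% at I and 58.2% at III.

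**Figure D3:**
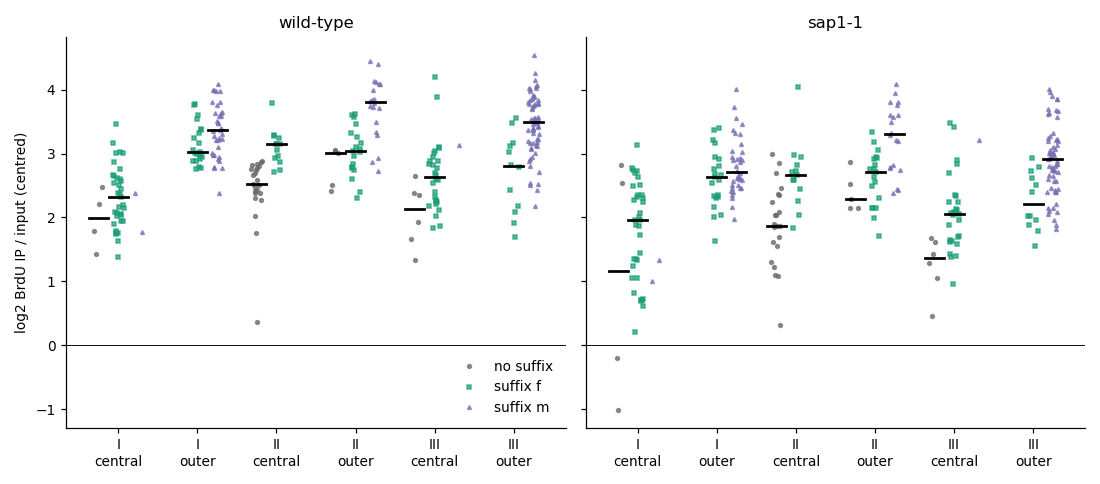
BrdU level (centred log2 ratio) of each centromere tile by centromere, domain and suffix class, wild-type on the left and sap1-1 on the right; bars are medians of classes with more than 2 tiles. In the outer domains the m tiles of centromere II have the highest median, 3.81 in wild-type and 3.31 in sap1-1.

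The input signal differed between the domains, as both copy number and GC content do. Its wild-type medians (log2, relative to the array median) were -1.46, -1.28 and -0.71 in the central domains of I, II and III. In the outer domains they were 1.32, 1.08 and 1.60. Median GC content was 28% over the central and 32.8% over the outer tiles, against 36.3% on the rest of the chromosomes. The part of each in the input was not tested. Where a smooth curve of ratio against signal intensity was removed within each array (loess), the step turned: outer minus central became -0.55, -0.51 and -0.43 in wild-type, against -0.77, -0.43 and -0.52 in sap1-1. Loess removes any trend of the ratio with intensity, whatever its source, and whether the step is such a trend was not tested. With the input alone averaged over both arrays, the step in wild-type was 0.73, 0.36 and 0.60.

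Single tiles ranged from 0.37 to 4.54 in wild-type and from -1.01 to 4.09 in sap1-1. The highest wild-type tiles were all m tiles of the outer domains. Tile 3784800 of centromere I had 4.09 in wild-type and 3.32 in sap1-1, tile 1609200 of II had 4.46 in wild-type and 3.81 in sap1-1, and tile 1121100 of III had 4.54 in wild-type and 3.96 in sap1-1. The highest sap1-1 tiles were other outer m tiles, at which the strains were level. Tile 3761100 of I had 3.98 in wild-type and 4.01 in sap1-1, tile 1608600 of II had 4.12 in wild-type and 4.09 in sap1-1, and tile 1076400 of III had 4.01 in wild-type and 4.02 in sap1-1. The highest tiles of the 3 centromeres on each array therefore lay in the same repeat class. Their differences (sap1-1 minus wild-type) were -0.78, -0.65 and -0.58 at the first 3 and 0.028, -0.033 and 0.0039 at the second 3. Each tile was chosen as the highest of a single array, a choice that favours that array, so the contrast of these differences is a description only.

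The lowest tiles were all in the central domains. Tile 3766500 was the lowest of centromere I in wild-type, with 1.39 in wild-type and 0.21 in sap1-1, and tile 1098600 the lowest of III on both arrays, with 1.34 in wild-type and 0.46 in sap1-1. The tile nearest the midpoint had 1.79 in wild-type and -0.20 in sap1-1 at I (tile 3769800), 2.84 in wild-type and 2.99 in sap1-1 at II (tile 1624800) and 2.24 in wild-type and 1.65 in sap1-1 at III (tile 1105200). The lowest tile of centromere II, 1628100, stood apart from its surroundings, with 0.37 in wild-type and 0.32 in sap1-1. The tiles 300 bp to either side had 2.81 and 2.87 in wild-type. Its input was 4.27 in wild-type and 4.32 in sap1-1, against a median of -1.28 for the central domain of II. An input at this height is close to that of the 61 mitochondrial probes of the array, whose medians were 4.06 and 3.86 (these probes were chosen for comparison after the value was seen), and what the tile captures was not tested.

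At the edges the high level did not stop with the interval. The outermost tiles were still high: tiles 3754200 and 3754500 on the left of centromere I had 3.33 and 3.81 in wild-type, against 2.67 and 3.31 in sap1-1, and tiles 3785400 and 3785700 on the right had 3.24 and 2.91, then 2.63 and 2.68. At centromere II tiles 1603200 and 1603500 had 3.11 and 2.74 in wild-type, against 2.92 and 2.55 in sap1-1, and tiles 1646100 and 1646400 had 3.17 and 2.77, then 2.72 and 2.30. At centromere III tiles 1071000 and 1071300 had 2.79 and 3.11 in wild-type, against 2.62 and 2.92 in sap1-1, and tiles 1136100 and 1136700 had 2.71 and 3.56, then 2.05 and 2.83. All 12 of these tiles were lower in sap1-1. In the 3 kb just inside the left and right edges, the wild-type medians were 3.34 and 3.25 at I, 3.05 and 2.64 at II, and 3.03 and 2.79 at III. In the 3 kb just outside they were 2.498 and 2.02 at I, 3.19 and 3.24 at II, and 2.61 and 2.90 at III. Centromere I was thus lower outside than inside on both sides, III on the left alone, and II on neither. The edges fall at unlike places in the sequence. In the 3 kb outside, the median share of 30-base words present more than once was 0% on both sides of I. It was 100% and 92.6% at II and 27.5% and 100% at III. At 12 to 15 kb outside, the medians were down to 1.65 and 0.24 at I, 1.90 and 1.29 at II, and 1.47 and 0.50 at III.

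Between the strains the edges of II and III also differed from their insides. In the 3 kb inside the left edge of II the median difference of sap1-1 minus wild-type was -0.48 and in the 3 kb outside it -0.10; on the right the values were -0.31 inside and -0.070 outside. At III they were -0.63 and -0.16 on the left, then -0.57 and -0.42 on the right. At I they were -0.65 and -0.35 on the left, then -0.68 and -0.46 on the right. In all 6 cases the difference of the ratio was nearer to 0 outside. Each outside median rests on 9 or 10 tiles and each inside one on 4 to 10. The precipitate (Cy5) went the other way on both sides of I and on the right of III. Its difference was -0.22 inside and -0.44 outside on the left of I, and -0.21 and -0.32 on its right. On the right of III it was 0.018 and -0.51. Inside these edges the input was higher in sap1-1, by 0.36, 0.53 and 0.56. At both edges of II and the left of III the precipitate difference was nearer to 0 outside.

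Set against wild-type, sap1-1 had a lower median BrdU level, a ratio to input, at each centromere with the array median as 0. The median difference was -0.56 at I (SD 0.48 over tiles), -0.46 at II (SD 0.33) and -0.59 at III (SD 0.27), and 268 of 288 tiles (93.1%) were lower in sap1-1, where 55.8% of all tiles were. At least 2-fold lower were 24 tiles (8.33%), against 17.1% of all tiles, and 0 were at least 2-fold higher, against 10.3%. This count depends on centring and scaling: 175 tiles were at least 2-fold lower with the most common ratio of each array as 0, 6 with loess and 7 with the sap1-1 array stretched. The median differences moved likewise. With the most common ratio of each array as 0, which lies at -0.43 on the wild-type and 0.11 on the sap1-1 array, the differences were -1.10, -1.003 and -1.13. With the sap1-1 array stretched for its smaller range over 10 kb medians (slope 0.85), they were -0.10, 0.0045 and -0.13, and at II the sign turns. Across the 288 tiles the arrays ran alike, with a Pearson correlation of 0.88 (n = 288 tiles that share probe and copy number; 0.74 over all tiles).

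The difference had nearly the same size in both domains but was made up differently by the channels. In the central domains the median difference was -0.51, -0.56 and -0.62 at I, II and III, with an input (Cy3) difference of -0.095, -0.066 and -0.034 and a precipitate (Cy5) difference of -0.66, -0.64 and -0.54. The central difference was thus in the precipitated DNA. In the outer domains the median difference was -0.57, -0.45 and -0.57, with 0.34, 0.16 and 0.45 in the input and -0.23, -0.25 and -0.13 in the precipitate. There the higher input of sap1-1 was the larger of both differences at I and III, and the lower precipitate at II. The input was higher in sap1-1 at 155 of 176 outer tiles (88.1%) and 41 of 112 central tiles (36.6%), where 48.1% of all tiles were. The precipitate was lower in sap1-1 at 146 outer and 102 central tiles, where 56.7% of all tiles were.

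Within the outer domains the higher input lay mainly in the m tiles. Outer m tiles had an input difference of 0.43 at I, 0.35 at II and 0.47 at III, and outer f tiles 0.14, 0.11 and 0.038. Elsewhere, 11339 tiles with no suffix on the rest of the chromosomes, at wild-type inputs between the quartiles of the outer domains, had a median input difference of -0.052. The 314 m tiles outside the intervals had 0.10, with a median of 4.58 copies against 9.26 for m tiles inside. Among those outside, the difference did not rise with copy number. It was 0.18 at the ends of I and II (36 tiles, 3.24 copies) and 0.17 in the flanks (4 tiles, 2.39 copies). On the rest of the chromosomes it was 0.099 (274 tiles, 5.20 copies). Copy number in the culture, DNA extraction and amplification cannot be told apart with 1 input per strain. With the mean input of both arrays under each Cy5 signal, the sap1-1 minus wild-type difference was -0.22, -0.24 and -0.12 in the outer domains and -0.64, -0.62 and -0.52 in the central domains of I, II and III, so that the central domains then differ more.

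**Figure D4:**
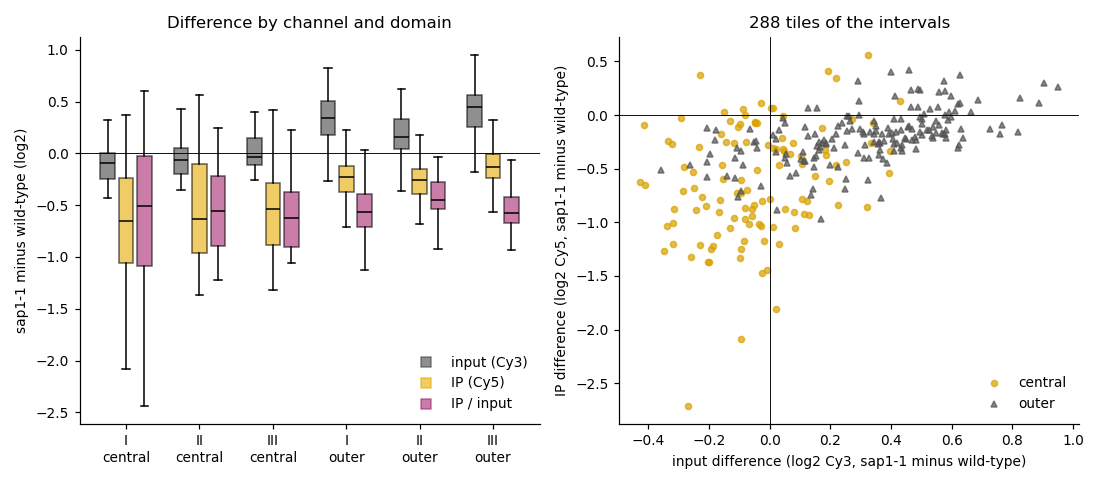
Left, sap1-1 minus wild-type difference (log2) of input (Cy3), precipitate (Cy5) and their ratio by domain and centromere; boxes are quartiles with the median over tiles, whiskers reach 1.5 interquartile ranges. Right, precipitate difference against input difference for each of the 288 tiles: outer tiles spread to higher input, central tiles to lower precipitate.

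Of the 24 tiles at least 2-fold lower in sap1-1 with the median as 0, 22 were central. That is 19.6% of the central tiles, near the 17.1% of all tiles, so it is not a result about the central domains; 1.14% of the outer tiles were as low. Centromere I held 14 of them (34.1% of its central tiles), and II and III 4 each. In 14 of the 24 a tile 300 bp away was also at least 2-fold lower, and in 18 the precipitate itself was. In wild-type the 22 central tiles had a median of 2.38 against 2.60 for the other central tiles, and in sap1-1 1.13 against 2.10. They were chosen by the difference of both arrays, so these values are a description. The lowest wild-type tile of centromere I, 3766500, is among them.

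The 2 most negative differences lay side by side in the core of centromere I. Tile 3770100 had 1.43 in wild-type and -1.01 in sap1-1, and tile 3769800 had 1.79 in wild-type and -0.20 in sap1-1. Their differences were -2.44 and -1.99. Both carry no suffix, and their inputs differed by little between strains (-1.12 and -1.39 for the first). Tile 3770100 and tile 3769800 were the only centromere tiles below the array median in sap1-1. At centromere II the most negative tiles, 1625100 and 1626600, also had no suffix; the first had 2.53 in wild-type and 1.31 in sap1-1, and the second 2.38 in wild-type and 1.22 in sap1-1. At III the f tiles 1099800 and 1100400 were lowest in difference, the first with 2.02 in wild-type and 0.97 in sap1-1 and the second with 3.01 in wild-type and 1.95 in sap1-1. Positive differences were small. The largest was tile 3774000 of I, with 2.21 in wild-type and 2.81 in sap1-1, at a low input of -2.35, followed at I by tile 3768600 with 2.02 in wild-type and 2.35 in sap1-1. At II tile 1631400, at the border of the central domain, had 3.79 in wild-type and 4.04 in sap1-1 and tile 1625700 had 2.70 in wild-type and 2.85 in sap1-1. At III tile 1101900 had 2.67 in wild-type and 2.90 in sap1-1 and tile 1108200 had 1.70 in wild-type and 1.79 in sap1-1. Centromere I thus held both the most negative and the most positive tile, and its central domain had the widest spread of differences, with an SD of 0.68 against 0.42 at II and 0.34 at III.

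Neighbouring tiles differed more in the central than in the outer domains on both arrays. Between neighbouring tiles 300 bp apart, the wild-type level differed with an SD of 0.61 in the central and 0.46 in the outer domains, and the sap1-1 level with 0.85 and 0.48. The central values include the steps to tile 1628100, which had 0.37 in wild-type between neighbours at 2.81 and 2.87. They were not recomputed without that tile. Over all chromosome tiles the SD was 0.60 in wild-type, near the central value, and 1.02 in sap1-1. The outer repeats thus had similar roughness on both arrays, while the core had the rougher profile in sap1-1, as the arms did. Most outer tiles average several repeat copies, and the part of this in the roughness was not tested.

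Of the 29 tRNA genes in the intervals 21 had a tile at their placed position. The 16 such tiles of the central domains had a median of 2.62 in wild-type and 2.02 in sap1-1, and the other 96 central tiles 2.52 and 2.02. Their median difference of sap1-1 minus wild-type was -0.43 (SD 0.40), against -0.62 (SD 0.53) for the other central tiles, and 3 of the 16 and 19 of the 96 were at least 2-fold lower. The gaps between these medians are within the tile SD and were not tested. At centromere I the outermost pair, the tRNA-Ala genes printed above, lay on the left at a tile with 2.86 in wild-type and 2.49 in sap1-1 and on the right at one with 2.57 in wild-type and 2.33 in sap1-1. The tRNA-Glu genes just inside them lay on the left at a tile with 2.39 in wild-type and 1.34 in sap1-1 and on the right at one with 1.78 in wild-type and 1.01 in sap1-1. Within I the tiles at the Ala pair were thus higher than those at the Glu pair on both sides and both arrays. The innermost pair, tRNA-Ile, had on the left 2.30 in wild-type and 1.66 in sap1-1 (mean of 2 tiles) and on the right 2.67 in wild-type and 1.24 in sap1-1. At II the tRNA-Ile gene of the left side had 3.14 in wild-type and 2.58 in sap1-1 and the tRNA-Val gene 2.74 in wild-type and 1.83 in sap1-1, and the right-hand copies had no tile. At III the left tRNA-Val gene shared a tile with a tRNA-Thr gene, with 3.14 in wild-type and 3.22 in sap1-1. Placement was taken as good to about 1 kb and was not checked inside the intervals. A tile given for a gene may thus be a neighbour or lie further off.

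All 288 tiles were well above background in both channels of both arrays, as were all but 39 of the 41251 chromosome tiles. None of the 288 was saturated, nor was any other chromosome tile, and none was marked as an outlier spot. Tiles whose names carry an R (148) and those without (140) had wild-type medians of 3.03 and 3.002.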

How the data were processed

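BrdU-precipitated and input DNA of 2 strains were measured on 2 two-colour Agilent tiling arrays, 1 per strain, which lay on 1 slide per the file headers. The scanner software, Agilent Feature Extraction in version 10.7.3.1 per the file headers, made the deposited processed signals, which are intensity values on a linear scale after background subtraction and dye scaling; median spot and local background intensities are deposited too and served alternatives only. The deposited log10 ratio is log10 of processed Cy5 over Cy3. It was turned into log2 from the deposited intensities and centred on the median of the 41240 usable chromosome tiles; 11 tiles with outlier marks were left out. No loess or quantile step was applied in the values given, since many tiles carry signal. An array gives no read depth; the number of tiles and the single array per strain limit the precision.

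Gene places came from RefSeq ASM294v3, whose numbering differs from the tiles. One offset per chromosome arm was found by sliding reference GC content along the input, and inside each interval the switch between the arm offsets was set by GC content and copies; no reference coordinate is printed. Repeats were counted as 30-base words. Groups follow the sample titles. Named tiles are, per centromere, the 2 outermost on each side, the one nearest the midpoint, the highest and lowest on each array and the 2 most negative and 2 most positive differences; named genes are the tRNA genes inside and the protein-coding genes on either side. The intervals, classes and comparisons were chosen with earlier results of these data known. No test was possible. The check on simulated data used a single offset over each whole chromosome, and an outer minus central difference put into independent noise. It did not cover the switch between arm offsets inside the intervals, so it checks neither the placement there nor the step in the data. Alternatives were other centrings, background corrections, scalings, filters, zones and thresholds. Tools were Python 3.11.15, numpy 2.4.6, pandas 2.3.3, matplotlib 3.10.9, R 4.3.3 and limma 3.58.1; normexp (offset 50) ran on median spot signals, as the mean spot signal was not used here.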

Additional observations from a re-analysis of the deposited data

How the results depend on the processing

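Of 480 alternative values of 37 results, 414 kept their sign and stayed within the tile SD (counts within 1.5 times), 45 moved further and 21 changed sign; of 280 values of 35 named tiles 72 moved and none of at least 2-fold changed sign. Values are in the order I, II, III. Loess within arrays turned the outermost minus innermost zone to -0.70, -0.55 and -0.42 in wild-type, against -0.66, -0.501 and -0.32 in sap1-1, outer minus central domain to the negative values given above (-0.55, -0.51 and -0.43, then -0.77, -0.43 and -0.52), and suffixed minus plain tiles to -0.25, -0.34 and -0.499, then -0.049, -0.18 and -0.496, from 0.97, 0.69 and 1.02 in wild-type. It also moved the level of I to 2.10 in wild-type and that of III to 1.98 and 1.52. Normexp turned the zone difference of II in sap1-1 to -0.049 and moved suffixed minus plain tiles of III in sap1-1 to 0.45. Stretching sap1-1 by the slope changed the sign of sap1-1 minus wild-type at II (0.0045) and in its outer domain (0.031), with -0.13 at III and -0.081 and -0.076 in the outer domains of I and III. The mode as centre gave -1.10, -1.003 and -1.13 for the intervals, -1.11, -0.99 and -1.11 for the outer domains, and -1.10 and -1.16 for the central domains of II and III. The mean input gave -0.19 at III and -0.22 and -0.12 in the outer domains of I and III. Removing a GC curve widened the zone difference to 1.89 (I) and 0.95 (II) in wild-type and 1.71 (I) in sap1-1, outer minus central at I to 1.76 in wild-type and suffixed minus plain at III to 1.78, and lowered the level of II to 2.31 and 1.78. The innermost and outermost 5 kb of III differed by 0.15 in wild-type, where the central domain lies off the midpoint. Leaving out suffixed tiles, which keeps few, gave levels of 1.998 at I and 2.14 at III in wild-type, then 1.17 and 1.36 in sap1-1; leaving out repeated sequence gave 2.36 and 1.43 at III, with a difference of -0.88. Tiles at least 2-fold above the median then numbered 37 and 34, or 33 and 31. Tiles at least 2-fold lower in sap1-1, 24 as reported, numbered 175 with the mode, 6 with loess, 15 with quantile scaling, 7 with the slope (and 1 higher), 6 without suffixed or repeated tiles and 6 after smoothing over 500 bp. The cause of these changes was not tested, other than the smaller number of tiles in the filtered sets. Zones about the middle of the central domain, and borders left out by 1 kb, were chosen after seeing the data. Plain tiles are too few in the outer domains of I and III for outer minus central without suffixed tiles.

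No paired analysis was possible because each strain has 1 array and the labels give no replicate numbers; for the same reason no replicate was left out.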
